A study of Homo sapiens with 16 samples.

Results

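The genes described here are 38 members of glucose breakdown and of the response to low oxygen, taken from the count table by their gene symbols. They are 26 glycolysis genes, from glucose transporters to lactate exporters and pyruvate dehydrogenase kinases, and 12 genes of the hypoxia-inducible factor (HIF) pathway, among 30813 genes in the table. The cells were A375 and 451Lu, human melanoma lines with activated BRAF, here as the resistant derivatives named DR A375 and 451Lu BR and shortened to A375 and 451Lu. Off-drug A375 cells had spent 6, 24 or 48 h in DMSO, and their on-drug counterparts were kept on dabrafenib at 0.5 µM plus trametinib at 0.05 µM. Off-drug 451Lu cells had spent 24, 72 or 120 h in DMSO, and the on-drug 451Lu cells were kept on dabrafenib at 1 µM. Dabrafenib is a BRAF inhibitor, and trametinib blocks MEK, the kinase that BRAF activates. The treatment notes name dabrafenib alone for 451Lu, while the source label calls the same cells resistant to dabrafenib and trametinib. There were 2 libraries in each of the 8 groups, and the labels do not say whether the 2 were grown separately. The p-values therefore cover the spread between these libraries, which may be technical. No on-drug group was matched to each off-drug time, so time in culture and withdrawal cannot be told apart. Line and drug regimen likewise cannot be told apart.

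Glycolysis splits glucose into pyruvate. The preparatory steps trap glucose in the cell and spend ATP, the pay-off steps return it, and lactate dehydrogenase with the lactate exporters removes the end product. Many of these genes are known targets of HIF, a transcription factor whose alpha subunits are marked for destruction by oxygen-dependent prolyl hydroxylases. Because HIF alpha is controlled largely as a protein, its RNA level is not its activity. In melanoma with activated BRAF, BRAF inhibitors are known to lower glycolysis.

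Levels are given as CPM, counts relative to a library's scaled total, after TMM scaling over all 16 libraries, and fold changes are log2 values ± SE from edgeR's quasi-likelihood fit. A gene is called where its adjusted p-value (Benjamini-Hochberg over all genes tested in that comparison) is under 0.05. Library totals ran from 9714190 to 16691725 counts. The members took 1.91% to 2.50% of the counts in A375 libraries and 2.40% to 3.72% in 451Lu libraries. The summed level of 8 genes that report ERK output was 2661 to 2888 CPM in off-drug A375 libraries, against 653 and 674 CPM on drug, and 5315 to 10363 CPM in off-drug 451Lu libraries, against 1076 and 1096 CPM on drug. Of these 8 genes, 6 or 7 were called higher in each comparison with the on-drug libraries. ETV5 was called lower in all 6, at 42.0 and 43.4 CPM in A375 at 6 h, against 143 and 146 CPM on drug, and at 105 and 124 CPM in 451Lu at 24 h, against 243 and 261 CPM on drug. Of 10 melanocyte markers, none was at 0 in any group except TYRP1 in 451Lu at 120 h. Their summed level was 2116 to 3240 CPM in off-drug A375 libraries, against 5173 and 5294 CPM on drug. The same sum in 451Lu was 1231 to 2644 CPM off drug, against 11528 and 12104 CPM on drug. These sums hide opposite changes. S100A1 was at 1118 and 1241 CPM in A375 at 48 h, against 81.3 and 84.0 CPM on drug. In 451Lu S100A1 was at 333 and 325 CPM at 120 h, against 84.7 and 91.4 CPM on drug. DCT fell to 89.8 and 99.1 CPM in A375 at 48 h, against 2921 and 3007 CPM on drug. Of 16 markers of other cell types, 10 had a row in the table. Their summed level was 45.7 to 68 CPM in off-drug A375 libraries, against 41.7 and 43.6 CPM on drug, and 84.6 to 194 CPM in off-drug 451Lu libraries, against 161 and 174 CPM on drug. EPCAM was at 0 counts in all 4 groups of 451Lu and in the off-drug groups of A375, while PECAM1 averaged 118 CPM in 451Lu at 120 h. This sum too hides opposite changes. KRT18 was called higher in each comparison with the on-drug libraries, at 53.6 and 49.3 CPM in 451Lu at 120 h, against 19.6 and 20.3 CPM on drug. In the same 120 h libraries LUM was at 5.49 and 6.66 CPM, against 153 and 138 CPM on drug. VWF, with 4 counts in each, changed there by -1.41 ± 0.50 on the log2 scale. The part of these marker levels in the results below was not tested, and in bulk RNA fewer cells of a type cannot be told apart from less RNA per cell.

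Most members were higher off drug in both lines. In A375 at 6 h, 25 of 36 members tested were higher and 7 lower, beside 35.1% of all genes called higher and 38.1% called lower. At 24 h in A375, 29 were higher and 3 lower (36.2% and 36.3% of all genes). At 48 h, 28 were higher and 6 lower (36.6% and 36.0% of all genes). In 451Lu at 24 h, 28 of 38 members were higher and 2 lower, beside 29.2% and 24.9% of all genes. At 72 h in 451Lu, 28 were higher and 4 lower (34.2% and 33.4% of all genes), and at 120 h 31 were higher and 4 lower (37.3% and 36.6% of all genes). At 24 h, the time both lines share, 24 of the 36 members tested in both were higher in both lines, beside 18.6% of all genes tested in both, and 1, PFKFB2, was lower in both, beside 13.9%. LDHB was higher in A375 and lower in 451Lu, as were 5.33% of all genes tested in both, and EGLN1 was lower in A375 and higher in 451Lu, as were 5.60%. SLC16A3 and CA9 had too few counts for a test in A375. The counts of members higher in 451Lu at 72 and 120 h include CA9. It had no counts on drug and entered the test only through its late off-drug counts, so its call there follows from the filter.

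The medians of the glycolysis and of the HIF target members are given side by side and were not tested against each other. The median log2 fold change of the glycolysis members was 0.33, 0.63 and 0.51 in A375 at 6, 24 and 48 h, and 0.41, 0.60 and 0.57 in 451Lu at 24, 72 and 120 h. The median over all genes tested lay between -0.06 and 0.03 in these 6 comparisons. For the 7 HIF targets other than CA9 the medians were 0.67, 1.03 and 1.33 in A375 and 1.46, 1.91 and 2.27 in 451Lu. The comparisons within a line share their on-drug libraries, so they do not repeat each other independently. With library totals alone in place of TMM, the median of all genes moved by -0.28 to -0.10 on the log2 scale in the 6 comparisons with the on-drug libraries. The members' split in A375 at 6 h then became 15 higher and 11 lower, beside 3459 and 7646 of 14449 genes. That in 451Lu at 120 h became 27 higher and 7 lower, beside 3799 and 6815 of 13851 genes.

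**Figure D1:**
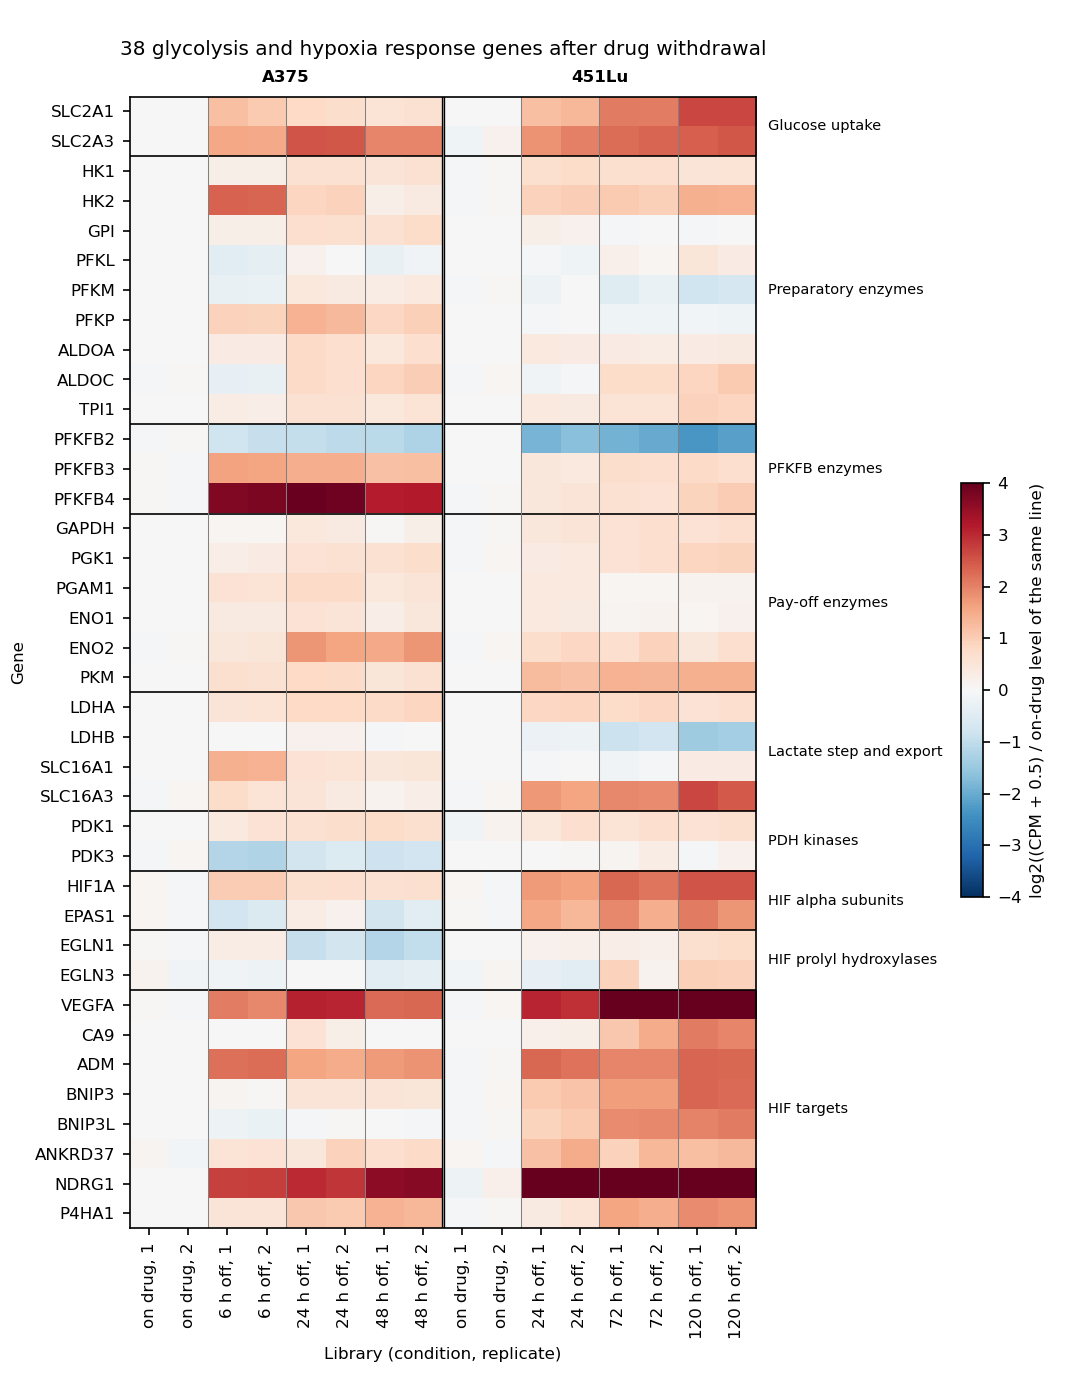
Heatmap of the 38 members (rows, grouped by role) in the 16 libraries (columns, by line and hours off drug), as log2 of CPM + 0.5 relative to the on-drug mean of the same line; colours stop at 4. Red cells, higher than on drug, fill most off-drug columns, and PFKFB2, lower than on drug, is blue in both lines.

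Both glucose transporters among the members rose in both lines at every time measured. SLC2A1 (GLUT1), the widespread glucose transporter, was at 41.8 and 41.1 CPM in A375 on drug, 95.8 and 86.3 CPM at 6 h, 72.4 and 67.2 CPM at 24 h, and 60.3 and 63.8 CPM at 48 h. In 451Lu it was at 42.9 and 44.7 CPM on drug, 101 and 110 CPM at 24 h, 185 and 183 CPM at 72 h, and 284 and 280 CPM at 120 h. All off-drug libraries lay above all on-drug libraries, and the off-drug values went down with time in A375 and up in 451Lu. The log2 fold change was 1.10 ± 0.064 in A375 at 6 h (edgeR adjusted p = 4.91e-17) and 2.67 ± 0.063 in 451Lu at 120 h (edgeR adjusted p = 1.97e-15). SLC2A3 (GLUT3), a transporter with a high affinity for glucose, was at 28.8 and 30.1 CPM in A375 on drug, 87.2 and 84.2 CPM at 6 h, 171 and 166 CPM at 24 h, and 115 CPM in both libraries at 48 h. Its level in 451Lu was 47.8 and 60.6 CPM on drug, 188 and 219 CPM at 24 h, 252 and 273 CPM at 72 h, and 283 and 306 CPM at 120 h. It was 5.58-fold higher in A375 at 24 h (log2 2.48 ± 0.057) and 5.35-fold higher in 451Lu at 120 h (log2 2.42 ± 0.097).

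Among the 9 preparatory enzymes, 8 were higher and none lower in A375 at 24 h, beside 36.2% of all genes higher. In 451Lu at the same time 5 were higher and none lower, beside 29.2% of all genes higher, and the counts were not tested against each other. HK2, the inducible hexokinase that traps glucose as its phosphate (chr2:74833981-74893359, GRCh38), was highest in A375 at 6 h. Its level was 131 CPM in both A375 libraries on drug, 676 and 660 CPM at 6 h, 240 and 247 CPM at 24 h, and 155 and 169 CPM at 48 h. Levels of HK2 in 451Lu were 136 and 145 CPM on drug, 267 and 276 CPM at 24 h, 289 and 275 CPM at 72 h, and averaged 372 CPM at 120 h. HK2 was 4.96-fold higher at 6 h in A375 (log2 2.31 ± 0.047, edgeR adjusted p = 2.04e-30) and 2.61-fold higher at 120 h in 451Lu (log2 1.39 ± 0.058). HK1, the constitutive hexokinase, rose in all 6 comparisons by 0.20 to 0.71 on the log2 scale, although its 0.20 in A375 at 6 h became -0.072 with library totals alone.

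Phosphofructokinase makes the committed step of the pathway from 3 kinds of subunit, and these differed in direction. PFKP, the platelet-type subunit, was at 103 and 100 CPM in A375 on drug, 191 and 188 CPM at 6 h, 268 and 252 CPM at 24 h, and 179 and 197 CPM at 48 h, and its log2 fold change at 24 h was 1.32 ± 0.051 (edgeR adjusted p = 3.3e-22). In 451Lu PFKP stood between 246 and 277 CPM in the 6 off-drug libraries, against 277 and 283 CPM on drug. It fell by 0.18 ± 0.053 on the log2 scale at 72 h. PFKM, the muscle-type subunit, averaged 150 CPM on drug in 451Lu and 140, 116 and 90.3 CPM at 24, 72 and 120 h, and it fell by 0.75 ± 0.079 on the log2 scale at 120 h (edgeR adjusted p = 2.61e-07). In A375 PFKM fell at 6 h (-0.31 ± 0.050) and rose at 24 h (0.36 ± 0.047) and 48 h (0.31 ± 0.048). PFKL, the liver-type subunit, fell in A375 at 6 h (-0.45 ± 0.064) and 48 h (-0.24 ± 0.063) and rose at 120 h in 451Lu (0.40 ± 0.063). PFKM overlaps SENP1, which had 17.1% of PFKM's counts and stood at 13.8 and 12.3 CPM at 120 h in 451Lu, against 28.2 and 26.1 CPM on drug.

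The other preparatory enzymes stayed under 2-fold against the on-drug libraries. GPI, which turns glucose phosphate into fructose phosphate, rose at all 3 times in A375, by 0.19 to 0.64 on the log2 scale, and its 0.19 at 6 h became -0.077 with library totals alone. Aldolase A (ALDOA), which cleaves the doubly phosphorylated sugar, rose in all 6 comparisons by 0.29 to 0.69. Its relative ALDOC fell in A375 at 6 h (-0.36 ± 0.083) and rose at 48 h (0.91 ± 0.071). In 451Lu ALDOC averaged 48.3 CPM at 24 h, against 52.0 CPM on drug, and reached 95.2 and 108 CPM at 120 h (0.95 ± 0.077). TPI1, which interconverts the 2 triose products, rose in all 6 comparisons, by 0.25 in A375 at 6 h and by 0.88 in 451Lu at 120 h, where its mean was 2069 CPM, against 1112 CPM on drug. With library totals alone TPI1 in A375 at 6 h was at -0.018.

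The PFKFB enzymes make and break down the sugar phosphate that activates phosphofructokinase, and here PFKFB3 and PFKFB4 rose in all 6 comparisons while PFKFB2 fell. PFKFB4 (chr3:48517684-48562015) had the highest fold of all members tested in A375 at 6 and 24 h. It was at 10.9 and 10.1 CPM on drug, 144 and 149 CPM at 6 h, 168 and 163 CPM at 24 h, and 96.5 and 99.0 CPM at 48 h. The A375 groups did not overlap, and PFKFB4 was 13.6-fold higher at 6 h (log2 3.76 ± 0.071, edgeR adjusted p = 2.15e-31) and 15.4-fold higher at 24 h (log2 3.94 ± 0.069). In 451Lu, where it started higher, it was at 80.9 and 87.0 CPM on drug, 115 and 121 CPM at 24 h, 128 and 127 CPM at 72 h, and 155 and 170 CPM at 120 h, a log2 fold change of 0.93 ± 0.066 at the last time. UCN2, which overlaps PFKFB4, had 90.3% of its counts and stood at 64.9 to 106 CPM off drug in A375, against 1.32 and 1.94 CPM on drug, and at 120 to 192 CPM off drug in 451Lu, against 99.8 and 108 CPM on drug. Reads of the 2 genes cannot be told apart where they overlap, since the strand setting is not given in the sources used here.

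PFKFB3 was at 70.9 and 65.1 CPM in A375 on drug, 208 and 205 CPM at 6 h, 186 and 189 CPM at 24 h, and 155 and 158 CPM at 48 h. The 451Lu values were 80.9 and 84.2 CPM on drug and between 109 and 140 CPM in the 6 off-drug libraries. It was 2.95-fold higher in A375 at 6 h (log2 1.56 ± 0.052) and 1.63-fold higher in 451Lu at 120 h (log2 0.70 ± 0.061). PFKFB2 went the other way. It was at 35.9 and 37.7 CPM in A375 on drug, 21.1 and 19.2 CPM at 6 h, 18.7 and 17.4 CPM at 24 h, and 17.2 and 15.3 CPM at 48 h. In 451Lu it was at 93.9 and 95.2 CPM on drug, 25.5 and 29.3 CPM at 24 h, 25.3 and 23.1 CPM at 72 h, and 18.4 and 20.4 CPM at 120 h. All off-drug libraries lay below the on-drug libraries of their line, and PFKFB2 was 2.32-fold lower at 48 h in A375 (log2 -1.21 ± 0.090) and 4.94-fold lower at 120 h in 451Lu (log2 -2.30 ± 0.089, edgeR adjusted p = 6.52e-13). YOD1, which overlaps PFKFB2 and had 173% of its counts, stood at 58.1 to 110 CPM off drug in A375, against 73.2 and 71.5 CPM on drug. In 451Lu YOD1 was at 26.3 and 26.2 CPM at 120 h and between 31.3 and 40.4 CPM at 24 and 72 h, against 38.2 and 39.4 CPM on drug. The part of YOD1 reads in the PFKFB2 values was not tested.

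All 6 pay-off enzymes were higher at 24 h in both lines, beside 18.6% of all genes tested in both. PKM, the pyruvate kinase of most dividing cells, had the highest fold of the 6 in 451Lu at each time. It was at 3718 and 3835 CPM on drug, 9028 and 8418 CPM at 24 h, 9966 and 9624 CPM at 72 h, and 10030 and 10202 CPM at 120 h. In A375 it was at 2812 and 2797 CPM on drug, 4360 and 4306 CPM at 6 h, 4900 and 4743 CPM at 24 h, and 3903 and 4294 CPM at 48 h. The log2 fold change at 24 h was 0.75 ± 0.042 in A375 and 1.24 ± 0.054 in 451Lu. The counts are per gene and do not separate the M1 and M2 splice forms of PKM.

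ENO2, the enolase first known from neurons, was the pay-off enzyme with the highest fold in A375 at 24 and 48 h. It was at 8.45 and 9.04 CPM on drug, 12.1 and 12.5 CPM at 6 h, 31.0 and 27.0 CPM at 24 h, and 25.9 and 31.1 CPM at 48 h, which was 3.27-fold higher at 24 h (log2 1.71 ± 0.11, edgeR adjusted p = 3.11e-16). In 451Lu it stood at 255 to 352 CPM off drug, against 175 and 199 CPM on drug. ENO1, the common enolase, rose in A375 by 0.32 to 0.51 and in 451Lu at 24 h by 0.40, and averaged 3945 and 3928 CPM at 72 and 120 h against 3632 CPM on drug. PGK1, which makes the first ATP of the pay-off steps, rose in all 6 comparisons by 0.25 to 0.86, and its 0.25 in A375 at 6 h became -0.013 with library totals alone. GAPDH, the dehydrogenase that opens the pay-off steps and a common reference gene, averaged 10348 CPM at 72 h in 451Lu against 6650 CPM on drug (0.64 ± 0.055). In A375 it rose at 24 h (0.36 ± 0.046), while its 0.11 ± 0.046 at 48 h depended on single libraries, since it was 0.01 without the second 48 h library (edgeR adjusted p = 0.805), 0.08 without the second on-drug library (0.187) and -0.080 with library totals alone. PGAM1, the phosphoglycerate mutase, rose at all 3 times in A375 by 0.45 to 0.74 and in 451Lu at 24 h by 0.42. Its call in 451Lu at 120 h (0.13 ± 0.052) was lost without any 1 of the 4 libraries compared, with values of 0.07 to 0.13 and edgeR adjusted p-values of 0.114 to 0.387, and became -0.15 with library totals alone.

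At the lactate step the 2 subunits of lactate dehydrogenase changed in opposite directions in 451Lu. LDHA, the subunit that favours making lactate, rose in all 6 comparisons by 0.49 to 0.86. LDHB, the subunit that favours the way back to pyruvate (chr12:21635342-21757857), was at 1125 and 1109 CPM in 451Lu on drug, 950 and 979 CPM at 24 h, 616 and 658 CPM at 72 h, and 421 and 438 CPM at 120 h. These values did not overlap between times, and LDHB was 2.63-fold lower at 120 h (log2 -1.39 ± 0.056, edgeR adjusted p = 1.03e-12). Its smaller drop at 24 h (-0.18 ± 0.054) was not called without the first 24 h library (-0.16, edgeR adjusted p = 0.0704) or without the first on-drug library (-0.18, 0.0574), and the count of members lower at that time was then 1. In A375 LDHB lay between 1111 and 1315 CPM in the 6 off-drug libraries, against 1163 and 1159 CPM on drug, and its call at 24 h (0.14 ± 0.040) became -0.097 with library totals alone.

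SLC16A1 (MCT1) was at 234 and 236 CPM in A375 on drug, 637 and 620 CPM at 6 h, 349 and 347 CPM at 24 h, and 324 and 332 CPM at 48 h, 2.60-fold higher at 6 h (log2 1.38 ± 0.043, edgeR adjusted p = 5.28e-25). In 451Lu it averaged 355, 333 and 455 CPM at 24, 72 and 120 h, against 363 CPM on drug, and was called at 120 h (0.31 ± 0.055). SLC16A3 (MCT4), the exporter typical of highly glycolytic cells (chr17:82228397-82261129), was at 135 and 153 CPM in 451Lu on drug, 480 and 433 CPM at 24 h, 542 and 531 CPM at 72 h, and 909 and 788 CPM at 120 h. It was 3.23-fold higher at 24 h (log2 1.69 ± 0.078) and 5.82-fold higher at 120 h (log2 2.54 ± 0.079, edgeR adjusted p = 4.62e-14). A375 libraries held 4 to 10 counts of SLC16A3 each, on and off drug. CSNK1D, which overlaps SLC16A3, stood at 123 to 133 CPM off drug in 451Lu, against 133 and 130 CPM on drug.

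The promoters of 4 of these genes, chosen after their values and matches were seen, are shown to print what a match looks like (LDHA, SLC16A3 and PGK1) and a stretch with none (LDHB). ACGTG is a form of the core of the known HIF binding site, and other forms were not searched for. Each stretch is the 250 bases before a RefSeq start site (build GRCh38.p14), 5′ to 3′ on the gene's strand, from the gene's window with most matches where it has several. Capitals mark ACGTG or its reverse complement CACGT, and a CACGTG holds both. LDHA is at chr11:18394313-18394562, forward strand, and SLC16A3 is at chr17:82228792-82229041, forward strand. PGK1 is at chrX:78103998-78104247, forward strand, and LDHB is at chr12:21657843-21658092, reverse strand.
LDHA: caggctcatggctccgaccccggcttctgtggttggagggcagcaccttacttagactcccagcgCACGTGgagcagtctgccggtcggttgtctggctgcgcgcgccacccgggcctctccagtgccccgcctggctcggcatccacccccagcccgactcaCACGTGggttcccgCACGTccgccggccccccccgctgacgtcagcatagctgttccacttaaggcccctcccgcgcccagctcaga
SLC16A3: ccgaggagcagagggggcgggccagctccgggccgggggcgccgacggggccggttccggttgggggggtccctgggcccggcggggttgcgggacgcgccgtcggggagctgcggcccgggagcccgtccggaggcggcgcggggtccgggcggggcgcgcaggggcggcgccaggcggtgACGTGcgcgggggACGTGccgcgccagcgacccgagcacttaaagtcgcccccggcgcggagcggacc
PGK1: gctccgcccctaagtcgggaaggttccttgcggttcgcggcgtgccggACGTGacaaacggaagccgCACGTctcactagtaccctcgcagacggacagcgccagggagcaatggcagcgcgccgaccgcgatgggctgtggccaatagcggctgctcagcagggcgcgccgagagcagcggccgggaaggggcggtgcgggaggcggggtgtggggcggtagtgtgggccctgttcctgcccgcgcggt
LDHB: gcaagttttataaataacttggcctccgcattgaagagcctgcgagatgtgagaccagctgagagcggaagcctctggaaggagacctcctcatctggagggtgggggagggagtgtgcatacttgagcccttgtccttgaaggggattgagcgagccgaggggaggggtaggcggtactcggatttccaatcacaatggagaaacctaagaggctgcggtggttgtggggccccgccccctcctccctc

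These letters occurred 5 times over both strands in the LDHA stretch, 2 times each in SLC16A3 and PGK1, and 0 times in LDHB. The other window of LDHA and the other 4 of SLC16A3 held none. Of 26 members with a window that were called higher in 451Lu at 120 h, 16 held ACGTG in at least 1 window and 10 in none (SLC2A1, HK1, PFKL, PFKFB4, PGAM1, PKM, HIF1A, EPAS1, EGLN3 and ADM). Of the 3 called lower there, 2 held it and 1, LDHB, did not. The 16 include CA9, which entered the test only through its late off-drug counts. Whatever their call, 20 of 32 members with a window held it, beside 6790 of 27305 genes. The members had more windows per gene than all genes, which by itself raises a share counted per gene. Counted over windows of 300 bases that run from 250 before to 50 after each RefSeq start, 24 of 59 windows of 32 members held ACGTG on either strand (40.7%), beside 21.4% of all 35116 promoter windows. CACGTG stood in 13.6% of the members' windows, beside 7.26% of all. Promoters were not used here for SLC2A3, SLC16A1, PFKFB2, VEGFA, NDRG1 and BNIP3L. A match in a window is a description of sequence, and binding was not measured.

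The pyruvate dehydrogenase kinases, which hold back the entry of pyruvate into the mitochondrial cycle, differed in direction in A375. PDK1 rose in all 6 comparisons by 0.44 to 0.66, for example to 36.8 and 38.6 CPM in A375 at 24 h, against 24.0 and 23.4 CPM on drug. PDK3 was at 25.6 and 28.6 CPM in A375 on drug, 11.9 and 11.4 CPM at 6 h, 16.2 and 18.4 CPM at 24 h, and 15.1 and 15.7 CPM at 48 h. It was 2.39-fold lower at 6 h (log2 -1.26 ± 0.10, edgeR adjusted p = 6.09e-13). In 451Lu PDK3 stood at 15.6 to 20.4 CPM off drug, against 16.3 and 16.4 CPM on drug, and was not called at any of the 3 times.

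Of the HIF alpha subunits, HIF1A rose in every comparison with the on-drug libraries. It was at 106 and 95.8 CPM in A375 on drug, 203 and 202 CPM at 6 h, 159 and 160 CPM at 24 h, and 155 and 157 CPM at 48 h. Levels in 451Lu were 174 and 153 CPM on drug, 529 and 504 CPM at 24 h, 809 and 713 CPM at 72 h, and 944 and 941 CPM at 120 h. The log2 fold change was 0.96 ± 0.051 in A375 at 6 h and 2.51 ± 0.074 in 451Lu at 120 h (edgeR adjusted p = 2.33e-14). EPAS1, which encodes the HIF-2 alpha subunit, rose in 451Lu at all 3 times and fell in A375 at 6 and 48 h. It was at 69.4 and 65.8 CPM in 451Lu on drug, 198 and 172 CPM at 24 h, 257 and 184 CPM at 72 h, and 284 and 234 CPM at 120 h, which was 3.79-fold higher at 120 h (log2 1.92 ± 0.13, edgeR adjusted p = 6.07e-10). In A375 it was at 18.7 and 16.5 CPM on drug, 10.1 and 11.5 CPM at 6 h, 21.5 and 20.1 CPM at 24 h, and 10.4 and 12.9 CPM at 48 h. It fell in A375 by 0.75 ± 0.12 on the log2 scale at 6 h and by 0.63 ± 0.12 at 48 h.

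EGLN1, which encodes PHD2, the main hydroxylase that marks HIF alpha for destruction, also differed. In A375 it was at 59.2 and 54.9 CPM on drug, 70.0 and 70.2 CPM at 6 h, 30.2 and 34.1 CPM at 24 h, and 25.1 and 28.3 CPM at 48 h, 2.19-fold lower at the last time (log2 -1.13 ± 0.076, edgeR adjusted p = 3.21e-15). Its rise at 6 h (0.26 ± 0.064) became -0.0097 with library totals alone. Its level in 451Lu was 90.7 and 87.5 CPM on drug, 100.3 and 103 CPM at 24 h, 108 and 102 CPM at 72 h, and at 139 and 148 CPM at 120 h, a log2 fold change of 0.67 ± 0.062 at the last time. Its call in 451Lu at 24 h (0.22 ± 0.062) was lost without the second on-drug library (0.19, edgeR adjusted p = 0.0677). EGLN3, which encodes PHD3 and is itself a known HIF target, was scarce, with 22 to 89 counts per library. In 451Lu it was at 5.75 and 5.60 CPM at 120 h, against 2.52 and 2.96 CPM on drug (log2 1.03 ± 0.24, edgeR adjusted p = 0.00125). Its calls in 451Lu at 72 h and in A375 at 48 h depended on single libraries: the first was 0.64 and became 0.16 without the first 72 h library (edgeR adjusted p = 0.662), and the second was -0.49 and became -0.31 without the first on-drug library (0.295). The call at 72 h was also lost without either on-drug library, and that at 48 h without either 48 h library. SPTSSA, which overlaps EGLN3, had far more counts than EGLN3 and stood at 103 and 104 CPM at 120 h in 451Lu, against 48.9 and 45.4 CPM on drug.

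NDRG1, a stress-response gene and a widely used marker of hypoxia, had the highest fold of the members other than CA9 in 451Lu at each time, and of those tested in A375 at 48 h. It was at 18.1 and 24.4 CPM in 451Lu on drug, 356 and 413 CPM at 24 h, 689 and 795 CPM at 72 h, and 1145 and 1221 CPM at 120 h. In A375 it was at 22.5 and 22.7 CPM on drug, 152 and 156 CPM at 6 h, 181 and 168 CPM at 24 h, and 276 and 290 CPM at 48 h. It was 54.6-fold higher at 120 h in 451Lu (log2 5.77 ± 0.12, edgeR adjusted p = 4.42e-16) and 12.3-fold higher at 48 h in A375 (log2 3.61 ± 0.060, edgeR adjusted p = 4.13e-33).

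VEGFA, the main signal for new blood vessels (chr6:43770184-43786487), had the next highest fold in 451Lu. It was at 58.3 and 66.0 CPM in 451Lu on drug, 514 and 471 CPM at 24 h, 1191 and 1202 CPM at 72 h, and 1782 and 1805 CPM at 120 h. In A375 it was at 51.4 and 49.1 CPM on drug, 211 and 191 CPM at 6 h, 430 and 420 CPM at 24 h, and 242 and 250 CPM at 48 h. It was 28.5-fold higher at 120 h in 451Lu (log2 4.83 ± 0.075) and 8.24-fold higher at 24 h in A375 (log2 3.04 ± 0.054). ADM, which encodes the vessel-dilating peptide adrenomedullin, was at 5.03 and 4.81 CPM in A375 on drug, 24.4 and 24.9 CPM at 6 h, 15.5 and 14.7 CPM at 24 h, and 17.1 and 18.1 CPM at 48 h. The 451Lu values were 30.8 and 32.7 CPM on drug, 159 and 146 CPM at 24 h, 124 and 126 CPM at 72 h, and 160 and 157 CPM at 120 h. ADM was highest in A375 at 6 h, and in 451Lu its level at 24 h overlapped that at 120 h. It was 4.87-fold higher in A375 at 6 h (log2 2.28 ± 0.12) and 4.89-fold higher in 451Lu at 24 h (log2 2.29 ± 0.068).

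BNIP3 and BNIP3L, receptors that mark mitochondria for removal, rose in 451Lu at each time. BNIP3 was at 50.9 and 56.8 CPM in 451Lu on drug, 112 and 120 CPM at 24 h, 172 and 174 CPM at 72 h, and 269 and 258 CPM at 120 h, 4.84-fold higher at the end (log2 2.27 ± 0.066). BNIP3L was at 86.6 and 94.4 CPM on drug, 167 and 189 CPM at 24 h, 334 and 345 CPM at 72 h, and 359 and 380 CPM at 120 h, 4.04-fold higher at the end (log2 2.01 ± 0.070). In A375 BNIP3 rose by 0.50 ± 0.058 at 24 h and by 0.47 ± 0.060 at 48 h, and was at 51.2 and 49.0 CPM at 6 h against 47.7 and 47.6 CPM on drug. BNIP3L in A375 fell at 6 h (-0.27 ± 0.062) and averaged 63.0 and 61.1 CPM at 24 and 48 h, against 63.5 CPM on drug.

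P4HA1, a subunit of the enzyme that hydroxylates collagen, was at 56.4 and 56.2 CPM in A375 on drug, 80.7 and 81.5 CPM at 6 h, 119 and 116 CPM at 24 h, and 149 and 142 CPM at 48 h. Levels in 451Lu were 127 and 133 CPM on drug, 168 and 191 CPM at 24 h, 394 and 354 CPM at 72 h, and 480 and 450 CPM at 120 h. It went up with each later time in both lines, to 2.52-fold at 48 h in A375 (log2 1.33 ± 0.054) and 3.53-fold at 120 h in 451Lu (log2 1.82 ± 0.072). ANKRD37, an ankyrin-repeat gene induced by HIF, was scarce. It was at 10.1 and 12.8 CPM in 451Lu at 24 h, 8.43 and 11.4 CPM at 72 h, and 10.3 and 11.1 CPM at 120 h, against 4.43 and 4.01 CPM on drug, and was 2.75-fold higher at 24 h (log2 1.46 ± 0.18). Its calls in A375 were 0.67, 0.82 and 0.88 at 6, 24 and 48 h. They were lost without the second on-drug library, with edgeR adjusted p-values of 0.178, 0.0667 and 0.0535. The call at 6 h was also lost without any other 1 of the 4 libraries compared, and that at 24 h without the second 24 h library (0.56, edgeR adjusted p = 0.149). UFSP2, which overlaps ANKRD37, stood at 23.1 to 29.7 CPM off drug in 451Lu, against 28.6 and 26.9 CPM on drug.

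CA9, the membrane carbonic anhydrase often used to stain hypoxic tumour regions, had 0 counts on drug in both lines. In 451Lu the libraries held 1 and 1 counts at 24 h, 5 and 9 at 72 h, and 19 and 15 at 120 h. With 3 counts over both on-drug libraries taken as the floor, CA9 was at least 7.87-fold higher at 72 h and at least 16.4-fold higher at 120 h. In A375 it had 4 and 1 counts at 24 h and 0 at the other times. At 1.54 CPM in 451Lu at 120 h it remained near the lower limit of these libraries, and ARHGEF39, which overlaps it, stood at 0.80 and 0.50 CPM there, against 6.95 and 7.30 CPM on drug. The promoter stretches of 3 HIF targets with a match, likewise chosen after it was seen, are shown to set their matches side by side, while the window of ADM held none. BNIP3 is at chr10:131981924-131982173, reverse strand, P4HA1 is at chr10:73096867-73097116, reverse strand, and CA9 is at chr9:35673678-35673927, forward strand.
BNIP3: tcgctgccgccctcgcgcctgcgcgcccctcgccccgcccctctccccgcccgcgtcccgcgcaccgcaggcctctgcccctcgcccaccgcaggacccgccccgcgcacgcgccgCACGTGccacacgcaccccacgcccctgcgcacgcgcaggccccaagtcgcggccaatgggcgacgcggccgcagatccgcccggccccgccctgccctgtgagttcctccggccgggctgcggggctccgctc
P4HA1: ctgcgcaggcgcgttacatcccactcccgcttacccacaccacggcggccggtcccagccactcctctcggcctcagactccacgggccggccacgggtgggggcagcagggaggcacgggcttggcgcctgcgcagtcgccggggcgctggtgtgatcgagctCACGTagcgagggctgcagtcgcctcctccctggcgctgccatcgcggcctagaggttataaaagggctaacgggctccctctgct
CA9: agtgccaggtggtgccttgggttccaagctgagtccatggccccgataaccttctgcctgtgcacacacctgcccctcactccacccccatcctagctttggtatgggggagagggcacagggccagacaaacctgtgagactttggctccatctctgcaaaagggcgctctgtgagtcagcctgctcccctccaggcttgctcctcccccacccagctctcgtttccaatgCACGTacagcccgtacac

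In CA9 the match begins 18 bases before the start, in P4HA1 86 bases and in BNIP3 134 bases before it. The BNIP3 match is a CACGTG. CA9 and P4HA1 each hold a single match. How matches relate to levels was not tested.

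**Figure D2:**
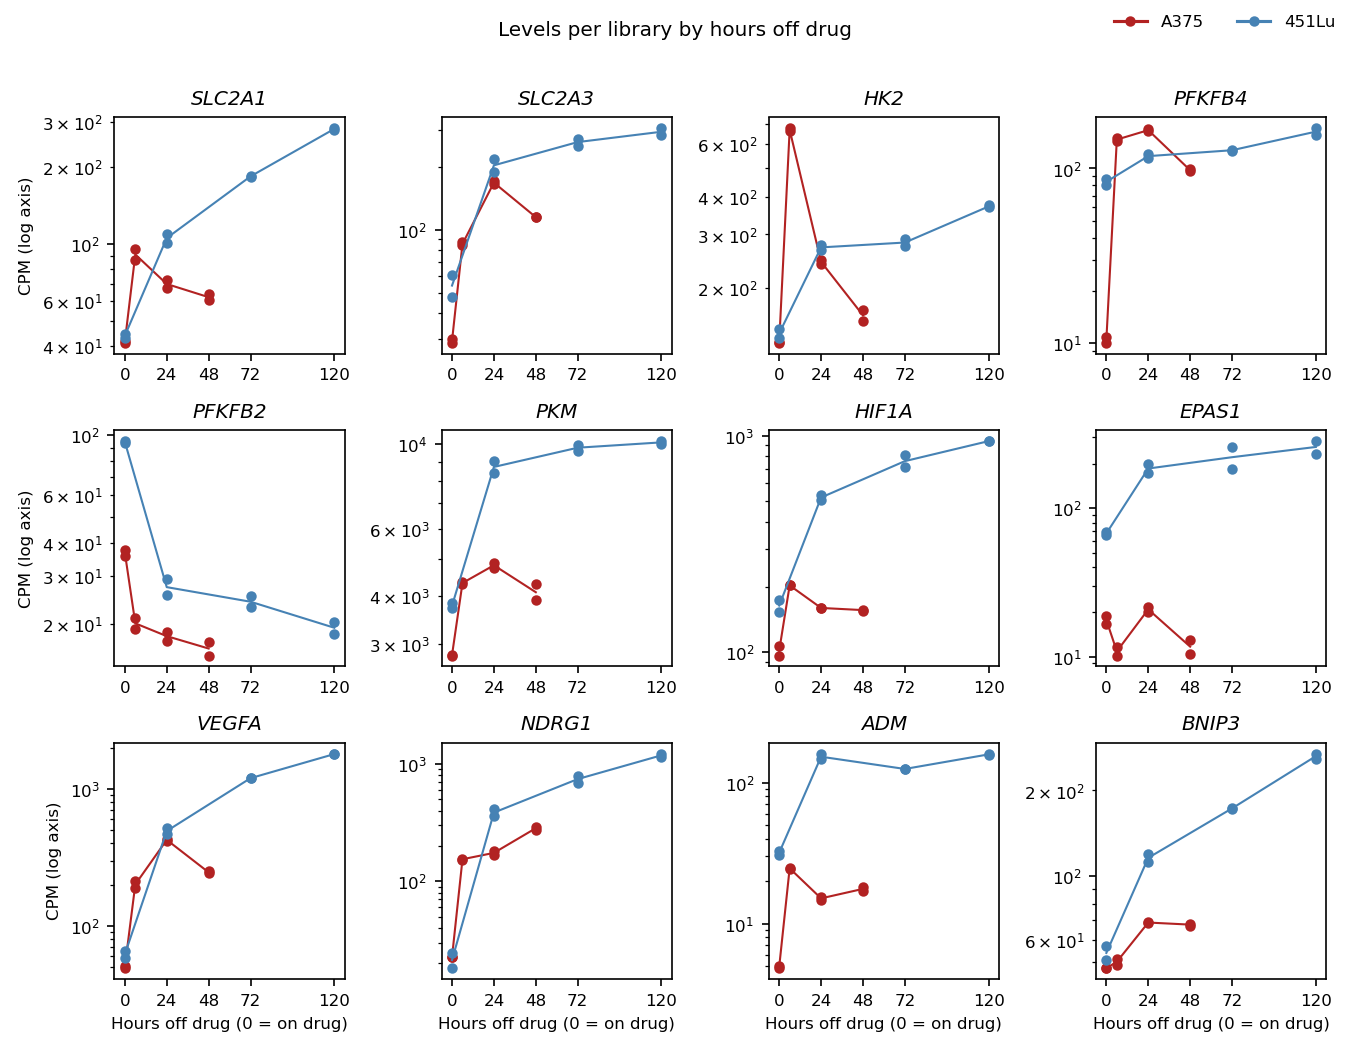
CPM (log axis) against hours off drug (0 is on drug) for 12 members, with 1 point per library, a line through the mean of each time, A375 in red and 451Lu in blue. HK2 in A375 reaches 676 and 660 CPM at 6 h and then comes down, while in 451Lu SLC2A1, HIF1A, VEGFA, NDRG1 and BNIP3 are higher at each later time; PFKFB2 is lower off drug in both lines.

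Where several members carry out the same step, their shares of the family's summed level per exon length show the balance of isozymes, given here as mean ± SD over 2 libraries. LDHB made up 48.8 ± 0.36% of lactate dehydrogenase transcripts at 48 h in A375, against 63.0 ± 0.27% on drug, and 32.4 ± 0.53% at 120 h in 451Lu, against 65.8 ± 0.58% on drug. Per exon length, LDHA was therefore the larger part in the last groups of both lines. Which subunit is the larger part depends on the lengths used. In CPM, LDHA already averaged 1276 against 1161 for LDHB in A375 on drug, and 1088 against 1117 in 451Lu on drug. HK2 made up 63.9 ± 0.13% of hexokinase transcripts at 6 h in A375, against 29 ± 0.50% on drug, and 46.2 ± 0.81% at 120 h in 451Lu, against 32.0 ± 0.31% on drug. PFKP made up 51.6 ± 0.77% of phosphofructokinase transcripts at 6 h in A375, against 31.2 ± 0.59% on drug. In 451Lu PFKM made up 12.1 ± 1.1% at 120 h, against 19.8 ± 0.41% on drug, and PFKL made up 45.0 ± 1.4%, against 33.5 ± 0.41% on drug.

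PFKFB2 shrank in both lines as a share of its family, to 2.71 ± 0.20% at 6 h in A375, against 20.7 ± 1.6% on drug, and to 2.92 ± 0.14% at 120 h in 451Lu, against 21.1 ± 0.54% on drug. PFKFB4 made up 55.9 ± 0.62% at 24 h in A375, against 15 ± 0.23% on drug, and 62.6 ± 2.5% at 120 h in 451Lu, against 47.9 ± 0.76% on drug. SLC16A3 made up 62.7 ± 2.2% of the 2 lactate exporters at 120 h in 451Lu, against 26.4 ± 2.3% on drug. In A375 its share was 0.14 ± 0.020% at 24 h, against 0.10 ± 0.026% on drug. In each of these pairs the off-drug libraries lay apart from the on-drug ones, although the shares of SLC16A3 in A375 rest on 4 to 10 counts per library. Shares were not tested, and reads of overlapping genes, such as UCN2 at PFKFB4, were not separated from them. Per exon length, GAPDH stood highest of the members in every group, at 4621 CPM per kb in 451Lu at 120 h, against 2990 on drug, and at 1999 CPM per kb in A375 at 24 h, against 1523 on drug.

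**Figure D3:**
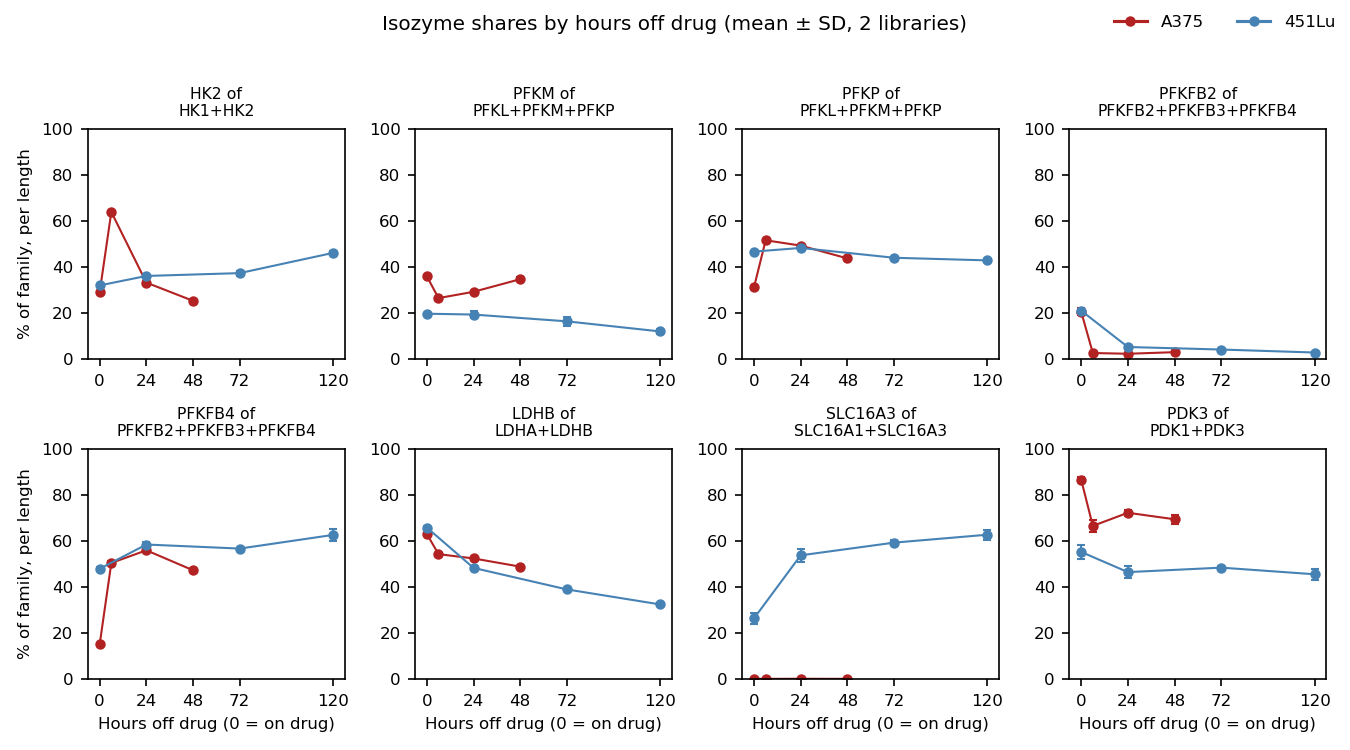
Share of 8 members in their family's summed CPM per exon length (percent, mean ± SD of 2 libraries) against hours off drug (0 is on drug), A375 in red and 451Lu in blue. LDHB and PFKFB2 take smaller shares off drug in both lines, HK2 peaks at 63.9% in A375 at 6 h, and SLC16A3 stays below 1% in A375.

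The first and the last time off drug were compared within each line. The spans differ, and these changes were not compared between the lines. In A375, 18 members were higher at 48 h than at 6 h and 9 lower, beside 36.0% and 34.6% of all genes. HK2 fell to 155 and 169 CPM at 48 h, against 676 and 660 CPM at 6 h (log2 -2.04 ± 0.047, edgeR adjusted p = 3.26e-28). EGLN1 fell by 1.39 ± 0.078, SLC16A1 by 0.93 ± 0.042 and SLC2A1 by 0.55 ± 0.064 on the log2 scale between these times. ALDOC rose by 1.27 ± 0.079, ENO2 by 1.22 ± 0.11 and NDRG1 by 0.88 ± 0.049. In 451Lu, 22 members were higher at 120 h than at 24 h and 10 lower, beside 32.5% and 31.1% of all genes. Of the 12 HIF pathway members, 10 were higher and none lower. Both counts of members higher include CA9, which entered the test only through its late off-drug counts. The 7 HIF targets other than CA9 had a median log2 fold change of 1.14. VEGFA rose by 1.82 ± 0.064, NDRG1 by 1.58 ± 0.094, SLC2A1 by 1.38 ± 0.059, P4HA1 by 1.33 ± 0.071 and BNIP3 by 1.14 ± 0.063. The 26 glycolysis members split into 12 higher and 10 lower, with a median of 0.06 that became -0.12 with library totals alone, and LDHB fell by 1.21 ± 0.056.

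On drug, most members were lower in A375 than in 451Lu. In the joint fit 4 were higher in A375 and 27 lower, beside 37.9% and 39.3% of all genes. With library totals alone 8 were higher and 24 lower, beside 7086 and 4924 of 15481 genes. ENO2 was at 8.45 and 9.04 CPM in A375, against 175 and 199 CPM in 451Lu (21.5-fold lower, log2 -4.42 ± 0.11, edgeR adjusted p = 4.05e-22). PFKFB4 was 8.0-fold lower in A375 (log2 -3.00 ± 0.078), ADM 6.45-fold lower (log2 -2.69 ± 0.098), EPAS1 3.82-fold lower (log2 -1.93 ± 0.13) and PDK1 3.20-fold lower (log2 -1.68 ± 0.091). SLC16A3 was at 0.22 and 0.32 CPM in A375, against 135 and 153 CPM in 451Lu (log2 -9.03 ± 0.17), the widest gap between the lines among the members. The 4 that were higher in A375 were PGK1 (0.72 ± 0.051), PDK3 (0.72 ± 0.095), EGLN3 (0.69 ± 0.21) and LDHA (0.23 ± 0.048), and EGLN3 was not called without the first A375 library (0.53, edgeR adjusted p = 0.0791). SLC2A1, HK1, HK2, PFKM, LDHB and NDRG1 were among the 7 that passed in neither direction, with on-drug means of 41.5, 252, 131, 149, 1161 and 22.6 CPM in A375, against 43.8, 235, 141, 150, 1117 and 21.3 CPM in 451Lu.

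The change at 24 h could be compared between the lines directly, through the interaction of line and withdrawal in the joint fit. It was larger in A375 for 16 members and smaller for 10, beside 27.4% and 22.0% of all genes, where smaller means a less positive or more negative log2 fold change. With library totals alone the split was 14 and 14, beside 2840 larger and 4813 smaller of 15481 genes. Of the 26 glycolysis members 15 were larger in A375 and 3 smaller, and of the 12 HIF pathway members 1 was larger and 7 smaller. The widest difference was that of PFKFB4, whose change was 3.50 ± 0.098 higher in A375 (edgeR adjusted p = 6.17e-20). PFKP (1.38 ± 0.074) and PFKFB3 (1.04 ± 0.079) followed. EPAS1 (-1.22 ± 0.19), NDRG1 (-1.21 ± 0.14), EGLN1 (-1.03 ± 0.095) and HIF1A (-1.01 ± 0.090) lay at the other end. UCN2, which overlaps PFKFB4, was at 106 and 104 CPM in A375 at 24 h, against 1.32 and 1.94 CPM on drug. In 451Lu UCN2 was at 120 and 128 CPM at 24 h, against 99.8 and 108 CPM on drug. The part of UCN2 reads in the PFKFB4 difference was not tested. For VEGFA, HK2 and LDHA the difference did not pass the test, which does not show that the lines act alike: their log2 fold changes were 3.04 ± 0.054, 0.86 ± 0.048 and 0.77 ± 0.041 in A375, against 3.01 ± 0.071, 0.98 ± 0.058 and 0.86 ± 0.056 in 451Lu. The lines were on different drugs and doses before withdrawal, so this difference is one between line and regimen together.

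**Figure D4:**
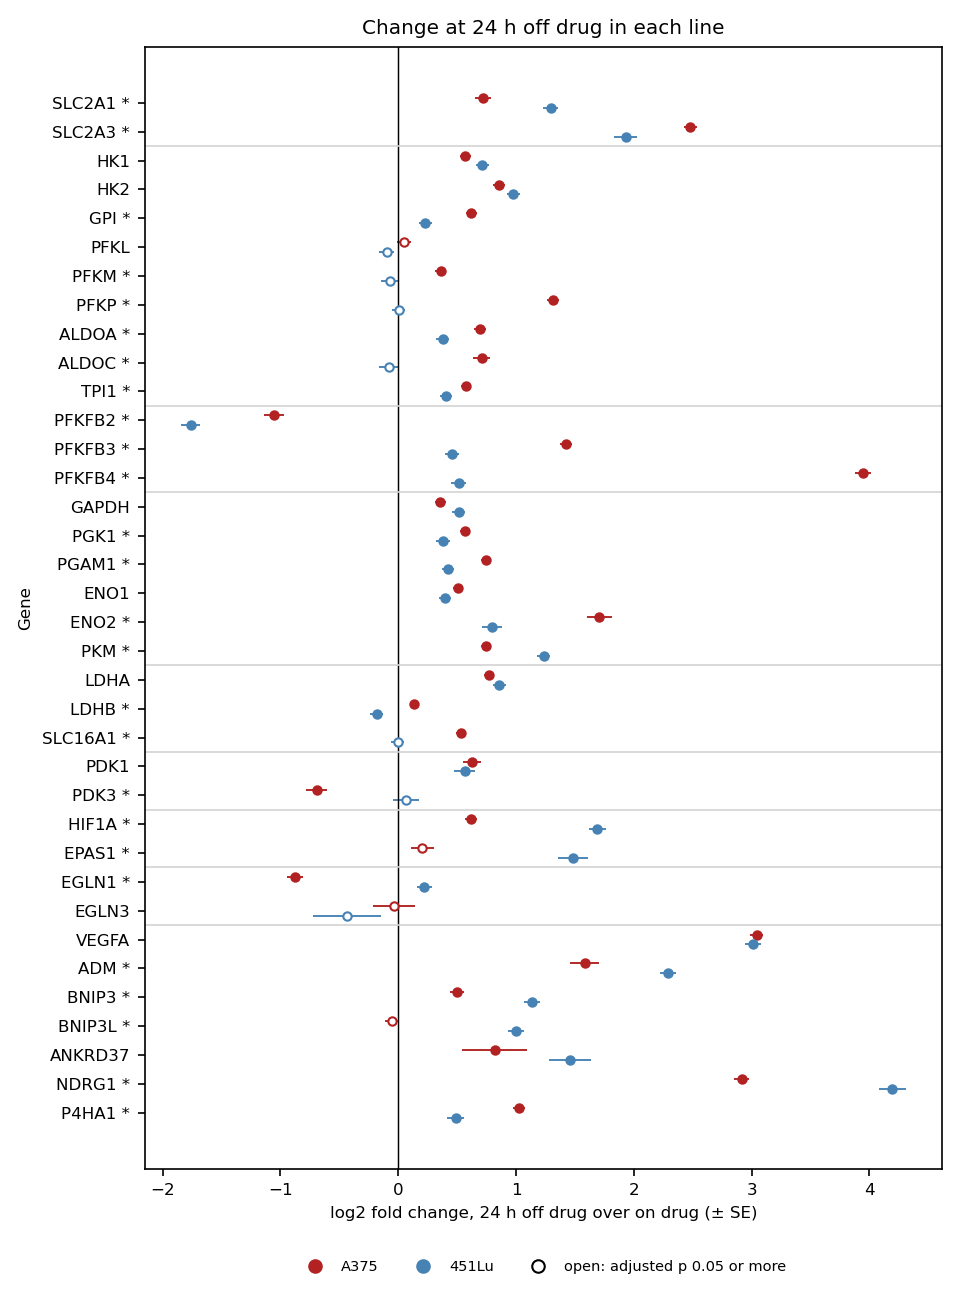
Log2 fold change at 24 h off drug over on drug (± SE) for 36 members tested in both lines, A375 in red above 451Lu in blue, filled where the adjusted p was under 0.05 and open otherwise; a star after the name marks a difference between the lines with adjusted p under 0.05. PFKFB4 stands at 3.94 in A375 against 0.51 in 451Lu, and HIF1A at 0.62 against 1.69.

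Further genes of both pathways were read from lists of 44 glycolysis genes, 41 of them in the table, and 47 HIF pathway genes, 44 of them in the table. In A375, the further glycolysis genes were 7 higher and 13 lower at 6 h, 17 and 5 at 24 h, and 15 and 7 at 48 h, of 28 tested. Their share higher was 25%, 60.7% and 53.6%, beside 35.1%, 36.2% and 36.6% of all genes. In 451Lu they were 10 higher and 13 lower at 24 h, 11 and 8 at 72 h, and 12 and 12 at 120 h, of 28 tested. The share higher was 35.7%, 39.3% and 42.9%, beside 29.2%, 34.2% and 37.3% of all genes, and the share lower was 46.4%, 28.6% and 42.9%, beside 24.9%, 33.4% and 36.6%. The further HIF pathway genes were 18 higher and 12 lower, 23 and 8, and 23 and 9 in A375, of 39 tested, so that 46.2%, 59.0% and 59.0% were higher, beside the same shares of all genes in A375. In 451Lu they were 25 higher and 4 lower, 27 and 5, and 27 and 5, of 35 tested, so that 71.4%, 77.1% and 77.1% were higher, beside 29.2%, 34.2% and 37.3% of all genes.

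Of the further genes called higher, ANGPTL4 and IGFBP3 of the hypoxia list rose most at each time in both lines. LOXL2 of the same list came next in 451Lu. ANGPTL4, a secreted regulator of lipid uptake, was at 0.17 and 0.13 CPM in A375 on drug, 40.9 and 39.8 CPM at 6 h, 6.82 and 8.51 CPM at 24 h, and 4.58 and 5.35 CPM at 48 h. In 451Lu it was at 0.14 and 0.35 CPM on drug, 18.5 and 20.7 CPM at 24 h, 102 and 120 CPM at 72 h, and 369 and 315 CPM at 120 h. Its log2 fold change was 7.97 ± 0.22 at 6 h in A375 and 10.34 ± 0.18 at 120 h in 451Lu, both against on-drug libraries of 2 to 6 counts. IGFBP3, which binds insulin-like growth factors, reached 976 and 979 CPM at 48 h in A375, against 13.9 and 12.8 CPM on drug (log2 6.15 ± 0.061), and 1605 and 1362 CPM at 120 h in 451Lu, against 0.54 and 0.99 CPM on drug (log2 10.85 ± 0.20). LOXL2, an enzyme that cross-links collagen, was at 276 and 245 CPM at 120 h in 451Lu, against 1.63 and 1.51 CPM on drug (log2 7.35 ± 0.12), and at 49.7 and 49.1 CPM at 48 h in A375, against 19.7 and 16.9 CPM on drug (log2 1.39 ± 0.086).

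Among the further glycolysis genes, PDK4, a kinase of pyruvate dehydrogenase induced in fasting, fell to 2.81 and 2.86 CPM at 6 h in A375 and rose to 47.7 and 48.0 CPM at 48 h, against 11.9 and 10.2 CPM on drug (log2 -2.00 ± 0.17 and 2.07 ± 0.089). SLC2A12, a glucose transporter, had 2 counts in each A375 library at 6 h, against 52 and 40 on drug, and was at 6.77 and 8.21 CPM at 120 h in 451Lu, against 0.54 and 0.70 CPM on drug (log2 3.54 ± 0.27). GPD1 and GPD2, which pass electrons from glycolysis to the mitochondria, were among those that rose in A375 at 24 h, GPD1 on 22 and 14 counts against 1 and 4 on drug, and GPD2 with a log2 fold change of 1.58 ± 0.045. GPD2 fell in 451Lu at all 3 times, by 0.43 ± 0.063 at 24 h (edgeR adjusted p = 2.55e-05) and by 0.73 ± 0.063 at 120 h on the log2 scale. The 24 h change of GPD2, A375 minus 451Lu, was 2.07 ± 0.077 (edgeR adjusted p = 2.21e-17). HKDC1, a hexokinase-like gene, had 1 count in each 451Lu library at 120 h, against 88 and 109 on drug, and the liver-type pyruvate kinase PKLR had 0 and 1 counts, against 16 and 24 on drug.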

How the data were processed

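RNA was measured as read counts per gene in 16 libraries of 2 melanoma lines. The deposited table holds raw counts, made with TopHat2 2.1.0 and Bowtie 1.0.0 on GRCh38, per the submitters' processing notes. The sources used here give no counter, annotation release or strand setting. Each line (8 libraries, 4 groups) was fitted with edgeR 4.0.16 in R 4.3.3, using TMM scaling, filterByExpr (minimum count 10, minimum total 15), quasi-likelihood F tests and Benjamini-Hochberg adjustment over all genes tested: 14449 in A375, 13851 in 451Lu and 15481 in a joint fit of both lines for the comparisons between them. The fits were tested on simulated counts. Standard errors follow from each gene's F statistic, as the absolute log2 change over its root. CPM per kb uses GENCODE 29 exon lengths. Floors cover counting error only. TMM makes levels relative to each library's other genes. Replicates differed by more than sampling noise (chi-square per degree of freedom 1.27 to 5.61). All members were read by role, with single libraries given for most of those called at 2-fold or more. From each further list the 3 called genes with the largest absolute log2 fold change per comparison could be named. Overlapping genes are named at 10% or more of a member's counts. The members and lists were chosen with earlier results of these data known. Alternatives were RLE size factors, library totals alone, no filter, DESeq2 1.42.0, other sample sets in the fit, a test against a 1.5-fold change, a replicate block, and leaving out each library.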

Additional observations from a re-analysis of the deposited data

Results flagged for a closer look

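For 26 of the 38 members the change at 24 h differed between the lines by the test of the difference itself in the joint fit (edgeR adjusted p under 0.05). Values are the log2 fold change off over on drug in A375 minus that in 451Lu. Among the HIF pathway members it was -1.22 for EPAS1, -1.21 for NDRG1, -1.03 for EGLN1, -1.01 for HIF1A, -0.98 for BNIP3L, -0.64 for ADM and -0.57 for BNIP3, against 0.60 for P4HA1. Among the glycolysis members it was negative for PDK3 (-0.69), SLC2A1 (-0.51) and PKM (-0.43). It was positive for TPI1 (0.23), PGK1 (0.25), ALDOA (0.38), LDHB (0.38), PGAM1 (0.39), GPI (0.46), PFKM (0.50), SLC16A1 (0.60) and SLC2A3 (0.61). The remaining glycolysis members, also positive, were PFKFB2 (0.77), ALDOC (0.85), ENO2 (0.97), PFKFB3 (1.04), PFKP (1.38) and PFKFB4 (3.50). For PFKFB2 the positive value means a smaller fall in A375, which was -1.05 there against -1.76 in 451Lu in the separate fits of each line. Values of the joint fit need not equal the gap between those of the separate fits. The value of PGK1 was 0.19 without the second on-drug 451Lu library (edgeR adjusted p = 0.0518).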

How the results depend on the processing

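Of 311 calls of members, 154 stood under every alternative run, 147 were lost under at least 1 without turning, and 10 turned direction. Of the lost calls, 112 were lost only under the test against a 1.5-fold change, and all 107 calls of at least 2-fold stood under every alternative. Of 78 calls of further pathway genes, 71 stood. The turned values came with library totals alone, which move the median of all genes: BNIP3 at 0.023 on drug between the lines, EGLN1 at -0.0097, GPI at -0.077, HK1 at -0.072, PGK1 at -0.013 and TPI1 at -0.018 in A375 at 6 h, LDHB at -0.097 in A375 at 24 h, GAPDH at -0.080 in A375 at 48 h, PGAM1 at -0.15 in 451Lu at 120 h, and, for 120 h over 24 h in 451Lu, PKM at -0.012 and the median of the glycolysis members at -0.12. The same scaling gave 15 members higher and 11 lower in A375 at 6 h, beside 3459 and 7646 of 14449 genes. It gave 6 members lower in A375 at 24 h, beside 7304 of 14449 genes. It also gave 7 lower in 451Lu at 120 h, beside 6815 of 13851 genes. On drug it gave 8 members higher in A375, beside 7086 of 15481 genes.

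The test against a 1.5-fold change, stricter by construction, called 4566, 4257 and 4525 genes in A375 at 6, 24 and 48 h, 2373, 4387 and 5688 in 451Lu at 24, 72 and 120 h, 4481 between the late and early times in A375, 3562 between those in 451Lu, 7054 on drug between the lines and 2722 for the difference at 24 h. Members higher were then 11, 16 and 11 in A375 at 6, 24 and 48 h, 16 in 451Lu at 24 h, 4 and 11 between late and early times in A375 and 451Lu, 1 on drug and 5 for the difference at 24 h. Members lower were then 2 and 3 in A375 at 6 and 48 h, 1 and 2 in 451Lu at 24 and 72 h, 3 and 1 between late and early times in A375 and 451Lu, 17 on drug and 5 for the difference. Leaving out 1 library at a time gave 1 to 2 members lower in 451Lu at 24 h, the smaller count without LDHB.

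With the replicate number as a block, no count of genes or members moved by over 1.5 times (10473 genes called in A375 at 6 h, against 10589 without it), and 1 member call was lost, ANKRD37 in A375 at 6 h (edgeR adjusted p = 0.0529). In their deviations from group means, same-numbered libraries correlated at 0.22, 0.24 and 0.30 between the off-drug 451Lu groups and at -0.15 to 0.03 between the other groups, the 451Lu on-drug group included. For 120 h over 24 h in 451Lu (0.30), the block called 9069 genes, against 8814 without it, and 22 members higher and 10 lower with or without it. Members under about 5 CPM (EGLN3, ANKRD37 in A375, CA9) are limited by depth.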

Other observations

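The following 3 genes of the further lists were chosen after their values were seen. MPC1, a subunit of the carrier that takes pyruvate into mitochondria, fell in all 6 comparisons with the on-drug libraries. It averaged 22.3, 19.0 and 14.1 CPM at 6, 24 and 48 h in A375, against 32.9 CPM on drug, and 28.9, 27.1 and 21.5 CPM at 24, 72 and 120 h in 451Lu, against 53.6 CPM on drug. The log2 fold change at the last time was -1.25 ± 0.093 in A375 (edgeR adjusted p = 4.62e-14) and -1.33 ± 0.085 in 451Lu (edgeR adjusted p = 4.68e-10).

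P4HA2 and PLOD2 both encode enzymes that modify collagen. P4HA2 rose in both lines at every time, while PLOD2 fell in A375 and rose in 451Lu. P4HA2 was at 309 and 316 CPM at 48 h in A375, against 43.0 and 37.2 CPM on drug (log2 2.93 ± 0.057), and at 571 and 553 CPM at 120 h in 451Lu, against 82.9 and 86.1 CPM on drug (log2 2.72 ± 0.059). PLOD2 was at 21.9 CPM in both A375 libraries at 48 h, against 34.6 and 33.3 CPM on drug (log2 -0.67 ± 0.086). In 451Lu it was at 938 and 898 CPM at 120 h, against 83.7 and 80.5 CPM on drug (log2 3.47 ± 0.069). The difference of the 24 h changes of PLOD2, A375 minus 451Lu, was -2.00 ± 0.10 (edgeR adjusted p = 1.55e-14). The smaller fall of PLOD2 in A375 at 6 h (-0.28 ± 0.082) was not called by DESeq2 (adjusted p = 0.135).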
